A study of Mus musculus with 8 samples.

Results

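The genes described here are 42 mouse genes that copy DNA or supply its building blocks. They were listed by known role, and the list was chosen with earlier results of these data known. The roles are the MCM helicase, origin recognition and loading, helicase activation, and the sliding clamp and its loader. The others are the polymerases and primase, single-strand binding and Okazaki fragment joining, nucleotide supply, and S phase entry. All 42 had a probeset (a set of array probes for a transcript) that the platform annotation pairs with exactly 1 gene symbol, out of 19938 genes measured this way. Pcna, Rpa3 and Tk1 had 2 such probesets, and the one with the higher mean over all arrays was used.

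A resting T cell holds its replication machinery at a low level and builds it after activation, when cyclin E and its kinase release E2F transcription factors from proteins of the retinoblastoma family. ORC, Cdc6 and Cdt1 load the MCM ring on origins before S phase, and Cdc45 and the GINS complex then turn that ring into a moving helicase. Primase and the polymerases copy the strands, PCNA holds the polymerases on DNA, and ribonucleotide reductase and thymidylate synthase make the deoxynucleotides that are used up.

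Total RNA from 8 cultures of C57BL/6 mouse CD4+ T cells was measured on arrays in 4 groups of 2. Spleens and lymph nodes of wild-type mice and of Tet2-/- mice, which lack an enzyme that oxidises 5-methylcytosine, gave the naive cells by sorting (CD4+, CD25-, CD62L high, CD44 low). Every culture was stimulated through CD3 and CD28 and had IL-4 blocked. IL-12 at 10 ng/ml with IL-2 at 30 U/ml made the Th1 cultures. The Th17 cultures had IL-6 at 10 ng/ml with TGF-β1 at 0.5 ng/ml, and interferon-γ was blocked as well. The sources used here do not say what kind of Tet2 allele the mice carried, their age, whether mice were pooled, how long the culture lasted or if IL-1β and IL-23 were used. The arrays are named biological replicates, but the sources do not say that they came from separate animals. In each Th17 group the 2 arrays differ in sex-linked genes (values below), so they do not hold cells from the same animal or pool. The Th1 arrays show no such difference. The p-values measure only the spread between these samples. Values are log2 levels, and because each array is bulk RNA, fewer cycling cells and less of a transcript per cell cannot be told apart.

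Before the replication genes, the labels were checked. Tet2 itself read 8.14 and 8.03 on the Th1 arrays labelled wild-type and 8.12 and 7.97 on those labelled Tet2-/-, and 8.53 and 8.51 against 8.37 and 8.42 in Th17 cells. The genotypes overlapped in Th1 cells and were apart in Th17 cells, by -0.13 (SE 0.116, limma adjusted p = 0.999). Whether this probeset lies in the deleted part is not given, the genotype labels could not be checked on it, and the groups are called by their labels throughout. Over all arrays, CD4 T cell markers had a mean level of 10.7 to 11.0, B cell markers 4.99 to 5.25, NK cell markers 4.31 to 4.60 and myeloid markers 5.26 to 5.47. Th1 markers (Ifng, Tbx21, Il12rb2, Cxcr3) lay at 10.0 to 10.4 on Th1 and 7.73 to 7.95 on Th17 arrays, and 4 measured Th17 markers at 5.83 to 6.10 and 8.94 to 9.44. The mean of 7 stromal and endothelial markers lay at 6.35 to 6.53 on Th1 and 6.79 to 7.18 on Th17 arrays. A few genes made this gap. The median Th17 minus Th1 difference was 0.04 in wild-type and 0.03 in Tet2-/- cells, and the largest was 1.78 and 2.87. Below 0 lay 3 and 2 of the 7. The part of these markers in the differences between the cell types was not tested. The Th17 arrays did not match each other in sex-linked genes: Xist read 5.20 and 10.1 on the wild-type arrays and 8.62 and 11.3 on the Tet2-/- arrays, against 4.83 to 5.11 on all Th1 arrays, and the mean of 3 Y-linked genes was 4.85 on Th17 Tet2-/- replicate 2 against 7.82 to 8.80 on the other Th17 arrays. Results in Th17 cells that rest on that array are given with and without it. Xist was also called higher in Th17 than in Th1 cells between the Tet2-/- groups (4.94, limma adjusted p = 0.0143). The parts of cell type and of the cells' sex cannot be told apart there. In wild-type cells, where 1 Th17 array had high Xist, the part of sex was not tested.

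The bases just before the start of transcription are shown for 6 of the genes, because E2F sites near the start are the known route by which S phase genes are switched on together. The RefSeq promoter table for GRCm38.p6 held an entry for 34 of the 42 genes. The letters searched were TTTCCCGC, TTTGGCGC, TTTCGCGC and TTTGCCGC on both strands, in the 250 bases before the start, and matches may overlap. They were found in 8 of the 34 genes (23.5%), against 583 of 27025 genes in the table (2.16%). A CCAAT box (CCAAT, both strands) was found in 21 of the 34 (61.8%), against 37.5% of the table. The CHR letters TTTGAA or TTCGAA, an element of mitotic promoters, were found in 7 of the 34 (20.6%), against 19.6%. Shown are the 4 genes with an E2F match and the 2 without that had the smallest p in the Th1 genotype comparison, among those with at least 200 bases outside the gene. They are read in the direction of transcription, in lower case, with capitals on the E2F letters. Tyms lies at chr5:30073646-30073875 (minus strand), Rrm2 at chr12:24708004-24708253 (plus), Rfc3 at chr5:151651209-151651458 (minus), Gins3 at chr8:95633309-95633558 (plus), Mcm5 at chr8:75109259-75109467 (plus) and Mcm6 at chr1:128359706-128359955 (minus).
Tyms: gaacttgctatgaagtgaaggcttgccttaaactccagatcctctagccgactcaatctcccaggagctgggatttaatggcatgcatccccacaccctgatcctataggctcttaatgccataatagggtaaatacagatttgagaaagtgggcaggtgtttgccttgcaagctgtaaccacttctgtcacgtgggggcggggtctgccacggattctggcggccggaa
Rrm2: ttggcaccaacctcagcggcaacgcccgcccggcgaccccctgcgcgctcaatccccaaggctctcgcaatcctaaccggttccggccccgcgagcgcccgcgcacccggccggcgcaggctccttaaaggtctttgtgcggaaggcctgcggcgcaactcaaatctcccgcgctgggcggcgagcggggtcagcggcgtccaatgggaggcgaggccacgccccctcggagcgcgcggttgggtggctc
Rfc3: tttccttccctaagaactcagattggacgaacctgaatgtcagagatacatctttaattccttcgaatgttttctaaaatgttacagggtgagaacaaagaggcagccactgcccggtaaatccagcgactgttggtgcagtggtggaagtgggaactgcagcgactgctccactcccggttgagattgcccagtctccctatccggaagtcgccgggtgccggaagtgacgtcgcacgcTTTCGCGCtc
Gins3: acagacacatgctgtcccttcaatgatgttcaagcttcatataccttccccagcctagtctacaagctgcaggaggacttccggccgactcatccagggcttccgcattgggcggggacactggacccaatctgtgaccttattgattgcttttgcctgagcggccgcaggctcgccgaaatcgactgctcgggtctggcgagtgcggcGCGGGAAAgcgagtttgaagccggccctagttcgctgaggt
Mcm5: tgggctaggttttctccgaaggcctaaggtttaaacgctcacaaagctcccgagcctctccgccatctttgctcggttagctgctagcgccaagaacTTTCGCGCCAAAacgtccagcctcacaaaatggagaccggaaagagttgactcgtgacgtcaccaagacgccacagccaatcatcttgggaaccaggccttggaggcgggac
Mcm6: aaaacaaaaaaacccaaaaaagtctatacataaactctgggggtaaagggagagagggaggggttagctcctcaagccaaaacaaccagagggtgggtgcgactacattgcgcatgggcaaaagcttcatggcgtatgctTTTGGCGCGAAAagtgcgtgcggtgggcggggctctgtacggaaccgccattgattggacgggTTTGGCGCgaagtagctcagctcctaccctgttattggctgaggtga
Mcm6 held 3 matches and Mcm5 held 2, which overlap, while Rfc3 and Gins3 held 1 each. Tyms and Rrm2, whose values differed most by genotype in Th1 cells, held none of these letters in the windows shown. Over the genes with an entry, the median genotype difference in Th1 cells was -0.20 for the 8 with an E2F match and -0.11 for the 26 without, with ranges of -0.33 to -0.01 and -0.49 to 0.18 that overlap. The genotypes were apart with Tet2-/- lower in 2 of the 8 and 7 of the 26, against 14.4% of all genes. Gins2, Pole, Prim2 and Ccne2 were also apart with Tet2-/- lower but had no entry, so they are not in this split. A match is a description of letters, and none of these data measured binding.

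In Th1 cells most of the replication genes read slightly lower on the arrays labelled Tet2-/-, led by thymidylate synthase and ribonucleotide reductase, but no single gene passed the test. The difference lay below 0 for 36 of 42 genes and above 0 for 6, against 47.8% of all genes below 0. The median was -0.12, against 0.01 over all genes, and the range was -0.49 to 0.18. Limma called 0 of the 42 after Benjamini-Hochberg adjustment, where it called 0.00502% of all genes. At an unadjusted p under 0.05 there were 5 lower genes (11.9%), Tyms, Rrm2, Rfc3, Rfc4 and Ccne2, and 0 higher, against 2.97% and 2.77% of all genes. The 2 Tet2-/- arrays lay below both wild-type arrays for 13 genes (31.0%) and above both for 3, Mcm3, Pold1 and Pold2, against 14.4% and 18.3% of all genes. The mean level of the 42 was 8.57 and 8.68 on the wild-type arrays and 8.43 and 8.52 on the Tet2-/- arrays, and the SD of that mean within groups was 0.0933. These counts moved with single arrays: 30 genes were lower without wild-type replicate 2, 30 without Tet2-/- replicate 1 and 31 without Tet2-/- replicate 2.

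**Figure D1:**
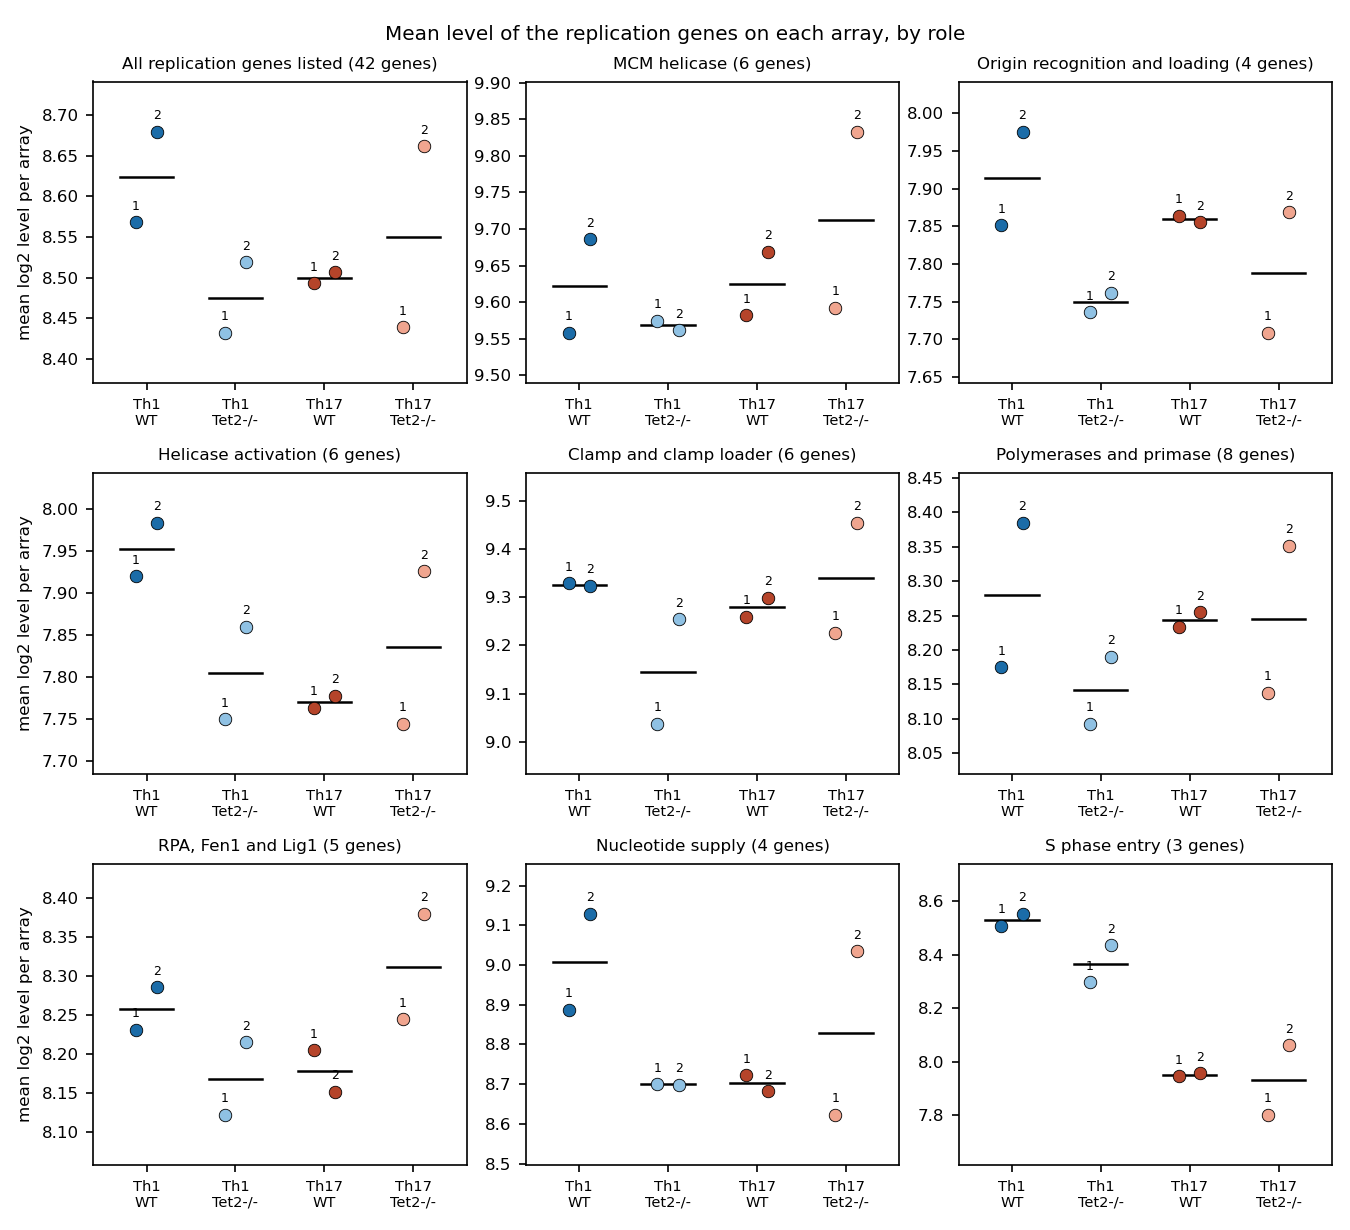
Mean log2 level of the genes of each role and of all 42, with 1 point per array, and a line at the group mean; the axes differ and do not start at 0. The 42 genes averaged 8.43 to 8.68 on every array, and the 3 S phase entry genes lay lower on all Th17 arrays (7.80 to 8.06) than on all Th1 arrays (8.30 to 8.55).

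Nucleotide supply held the lowest median of the roles in Th1 cells, -0.39 over 4 genes. Tyms, thymidylate synthase, which makes dTMP from dUMP, read 8.52 and 8.73 on the wild-type arrays and 8.07 and 8.21 on the Tet2-/- arrays. The groups did not overlap, and the difference was -0.48 (SE 0.163, 95% interval -0.84 to -0.13, limma adjusted p = 0.824). Rrm2, the regulatory subunit of ribonucleotide reductase that cells make in S phase, read 9.49 and 9.96 against 9.33 and 9.14. Both Tet2-/- arrays were again the lower ones, with wild-type replicate 2 well above the others, and the difference was -0.49 (SE 0.174, adjusted p = 0.824). Without wild-type replicate 2 it was -0.26, and without wild-type replicate 1 it was -0.72. Rrm1, the catalytic subunit, read 10.10 and 10.25 against 9.80 and 9.97, a difference of -0.29 (SE 0.146, adjusted p = 0.853). Tk1, thymidine kinase of the salvage route, did not share this: it read 7.43 and 7.57 against 7.60 and 7.47, which overlap, with a difference of 0.03. Its other probeset gave 0.12.

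Of the 5 genes with an unadjusted p under 0.05 in Th1 cells, 2 were small subunits of the clamp loader. Rfc3, a small subunit of replication factor C, which opens the PCNA ring and closes it around DNA, read 9.27 and 9.22 on the wild-type arrays and 8.85 and 9.01 on the Tet2-/- arrays. The difference was -0.32 (SE 0.120, adjusted p = 0.824), with the wild-type arrays close together and both Tet2-/- arrays below them. Rfc4, another small subunit, read 9.08 and 8.996 against 8.54 and 8.79, a difference of -0.37 (SE 0.144, adjusted p = 0.827). Rfc1, Rfc2 and Rfc5 overlapped between genotypes, as did Pcna, the clamp itself, at 11.70 and 12.04 against 11.79 and 11.76. All 6 genes of the clamp and loader had a difference below 0, with a median of -0.11.

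**Figure D2:**
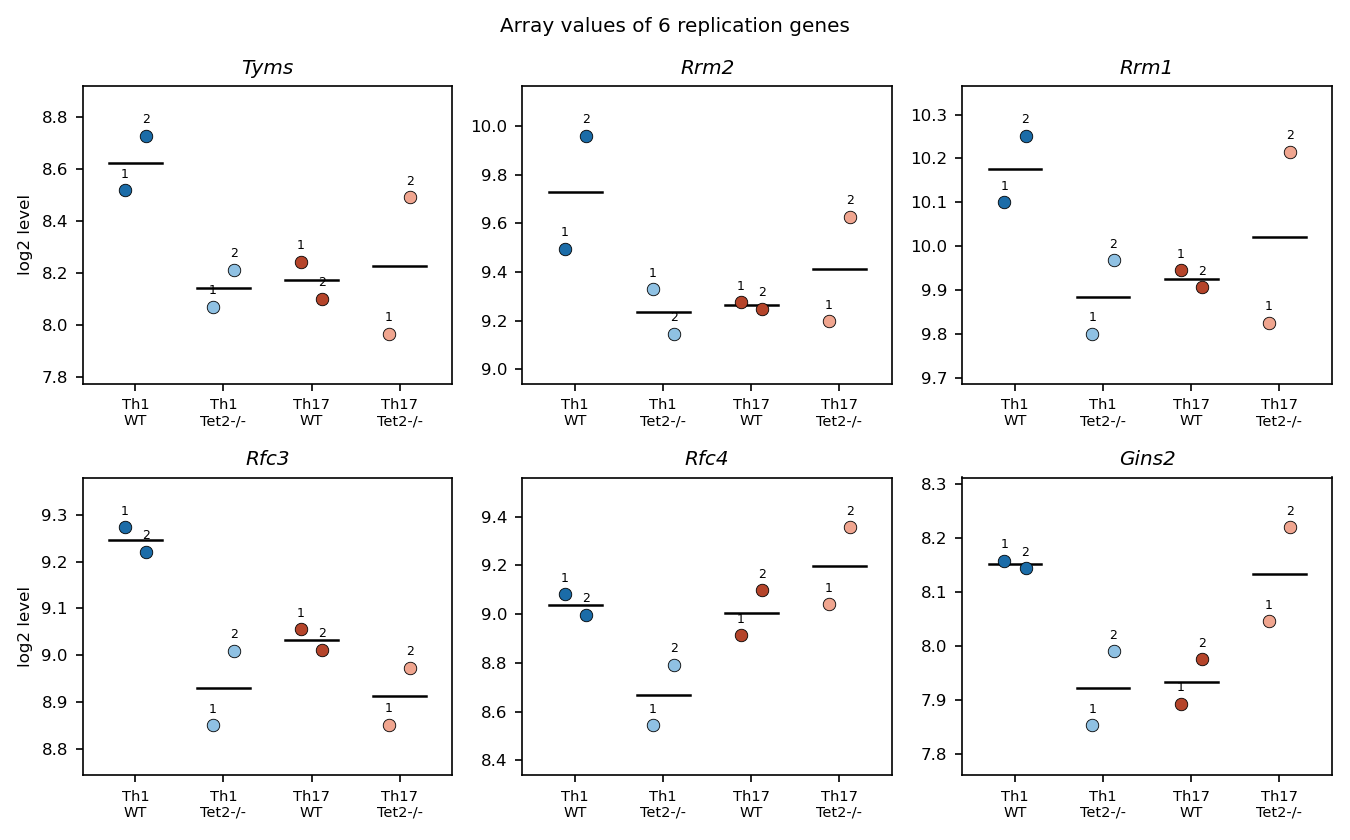
Log2 level of Tyms, Rrm2, Rrm1, Rfc3, Rfc4 and Gins2 on each of the 8 arrays, with replicate numbers beside the points and a line at each group mean; the axes differ and do not start at 0. In Th1 cells both Tet2-/- arrays lie below both wild-type arrays for each of the 6 genes, and in Th17 cells the Tet2-/- arrays lie above both wild-type arrays for Gins2 and below both for Rfc3.

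Among the polymerases and primase, 5 of 8 genes were lower in Th1 cells, with a median of -0.22. Pole, the catalytic subunit of the leading-strand polymerase epsilon, read 8.86 and 8.85 on the wild-type arrays and 8.51 and 8.65 on the Tet2-/- arrays, so the genotypes were apart, by -0.27 (SE 0.127, adjusted p = 0.853). Prim1, the catalytic subunit of primase, read 8.05 and 8.61 against 7.94 and 8.00. Its difference of -0.36 (SE 0.187, adjusted p = 0.853) rested on wild-type replicate 2 and was -0.08 without that array. Pola1, the catalytic subunit of polymerase alpha, read 7.66 and 8.22 against 7.41 and 7.81, and Pole2, the second subunit of polymerase epsilon, 7.51 and 7.89 against 7.23 and 7.56. Both genes overlapped between genotypes, with differences of -0.33 and -0.30. The 2 listed subunits of the lagging-strand polymerase delta went the other way, Pold1 by 0.07 and Pold2 by 0.18. So did Pola2, of polymerase alpha, by 0.07, with overlap between genotypes. These small differences did not pass the test.

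All 6 helicase activation genes had a difference below 0 in Th1 cells, with a median of -0.17. Gins2, a subunit of GINS, read 8.16 and 8.14 on the wild-type arrays and 7.85 and 7.99 on the Tet2-/- arrays, a difference of -0.23. Cdc45, the partner that GINS holds on the MCM ring, read 8.25 and 8.21 against 8.06 and 7.95, also a difference of -0.23. In both genes the wild-type arrays lay close together and the Tet2-/- arrays lay below them, but neither passed the test. Of the origin genes, Cdc6, the ATPase that recruits MCM, read 7.34 and 7.84 against 7.36 and 7.17, with the high value of wild-type replicate 2 behind its difference of -0.33. Cdt1, the other loader, read 8.23 and 8.06 against 8.09 and 8.17 and overlapped fully.

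The MCM ring differed least. Mcm2 read 9.96 and 10.03 on the wild-type arrays and 10.00 and 9.94 on the Tet2-/- arrays, and Mcm5 9.74 and 9.86 against 9.88 and 9.58. The 6 ring subunits had a median difference of -0.05 and a range of -0.16 to 0.03. Mcm5 and Mcm6, the subunits with the most E2F letters among the sequences above, differed by -0.07 and -0.01. Single-strand binding and fragment joining lay between, with 4 of 5 genes lower and a median of -0.13. Fen1, the flap nuclease, read 7.91 and 8.11 against 7.70 and 8.00, and Lig1, the ligase that joins the fragments, 8.46 and 8.70 against 8.62 and 8.41. Both overlapped between genotypes.

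Of the S phase entry genes, Ccne2, one of the cyclin E genes that activate Cdk2, read 8.46 and 8.38 on the wild-type Th1 arrays and 7.87 and 8.21 on the Tet2-/- arrays. The genotypes were apart, by -0.38 (SE 0.150, adjusted p = 0.827), and by -0.21 without Tet2-/- replicate 1. Ccne1, the other cyclin E gene, read 9.06 and 9.26 against 9.14 and 8.96, and E2f1 8.01 and 8.02 against 7.88 and 8.14. Both overlapped.

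Other genes of DNA synthesis and division gave the same comparison outside the 42. In Th1 cells 11 of 13 other licensing genes had a difference below 0 (median -0.12) and 16 of 19 other polymerase and fork genes (median -0.18), among them Atad5, which unloads PCNA, at -0.48, and the helicase Blm at -0.46. All 17 mitosis genes measured were lower, with a median of -0.35, among them the spindle checkpoint kinase Ttk at -0.60. Over all genes 47.8% lay below 0. Limma called 0 genes of these 3 lists. At an unadjusted p under 0.05 there were 1 licensing gene (7.69%), 2 fork genes (10.5%) and 8 mitosis genes (47.1%), all lower, against 2.97% of all genes. Other thymidylate and deoxynucleotide genes split, 6 of 11 lower with a median of -0.02, and pyrimidine and purine synthesis genes split as well, 8 of 15 lower with a median of -0.00.

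In Th17 cells the replication genes read slightly to either side of wild-type, none passed the test, and the direction of the median depended on 1 array. The difference lay above 0 for 27 of 42 genes and below 0 for 15, against 56.6% of all genes above 0, with a median of 0.05 against 0.02 over all genes. Limma called 0 of the 42, where it called 0% of all genes. At an unadjusted p under 0.05 there was 1 higher gene, Rpa3 (2.38%, against 2.81% of all genes), and 0 lower, against 1.44%. The arrays of the genotypes were apart for 11 higher genes (26.2%) and for 3 lower genes, Orc1, Cdt1 and Rfc3, against 19.9% and 13.3% of all genes. Without Tet2-/- replicate 2 the median was -0.09 with 12 genes higher and 30 lower, and without Tet2-/- replicate 1 it was 0.17 with 35 higher and 7 lower.

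**Figure D3:**
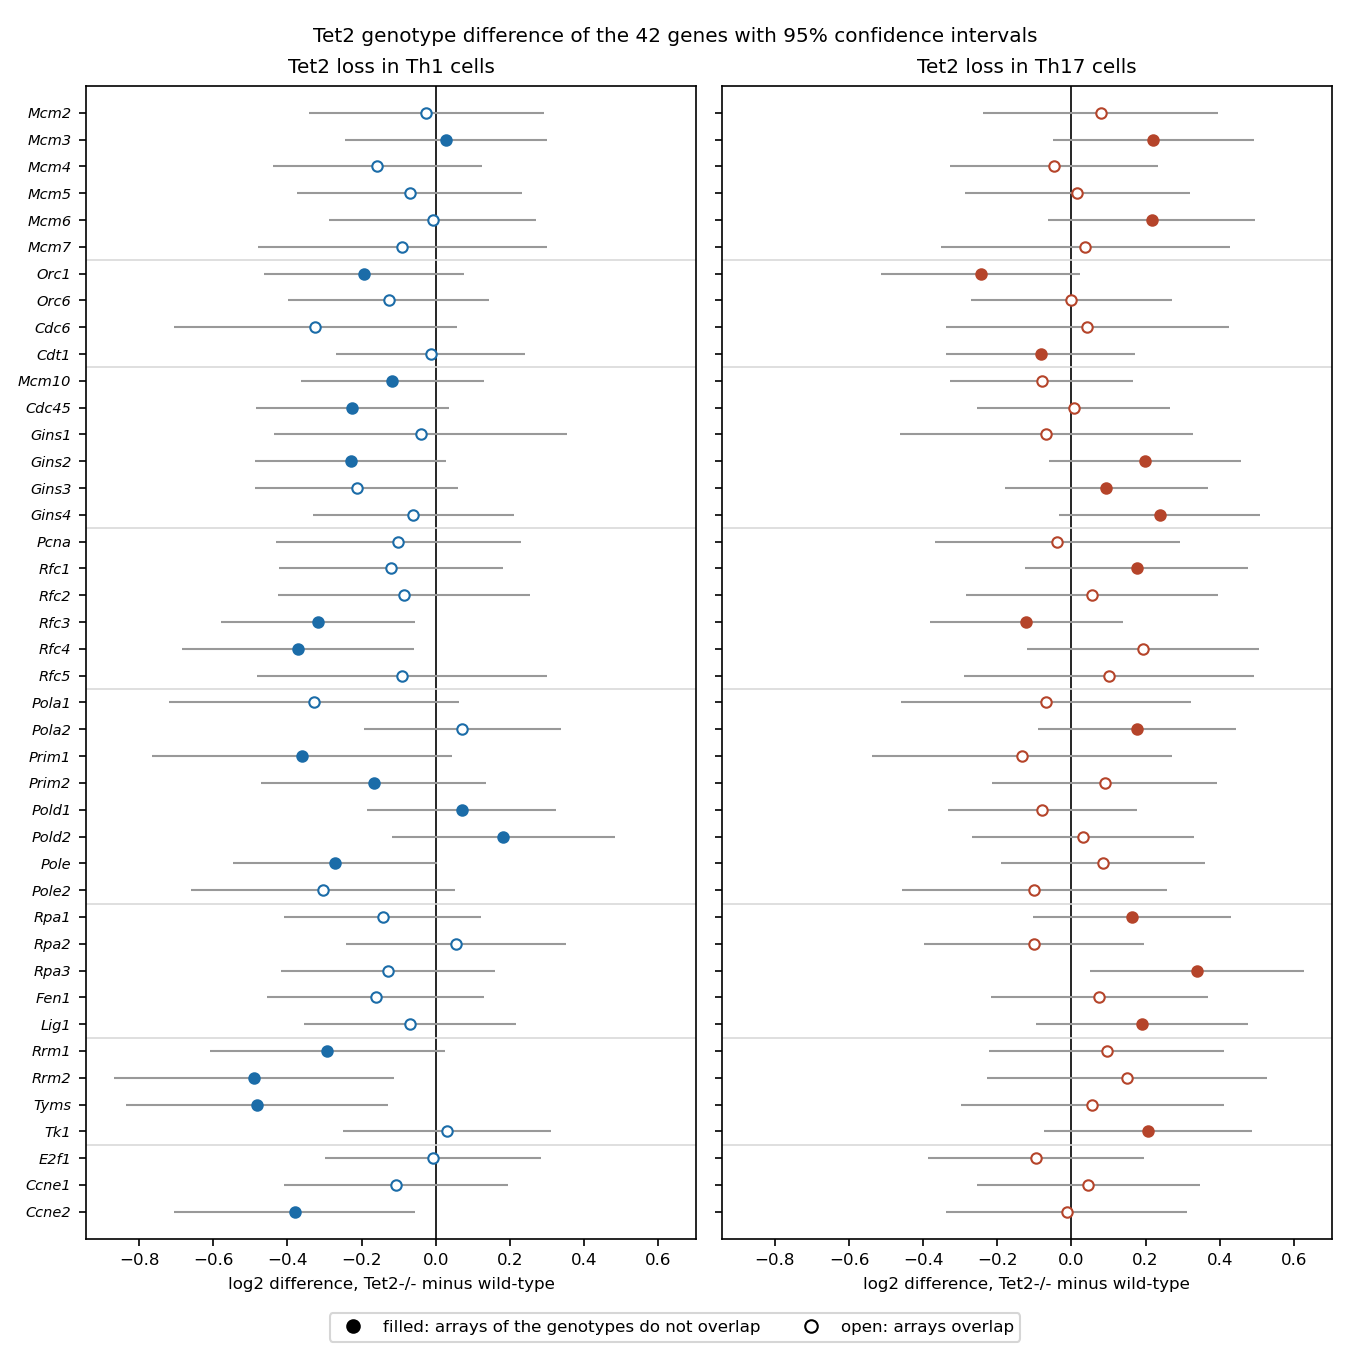
Difference in log2 level, Tet2-/- minus wild-type, for each of the 42 genes in Th1 cells (left) and Th17 cells (right), with 95% confidence intervals from limma and grey lines between roles. Filled points mark genes whose arrays do not overlap between genotypes; in Th1 cells 36 of 42 points lie below 0, and in Th17 cells 27 lie above it.

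The dependence on an array was seen in the replicates. In Th17 Tet2-/- cells replicate 2 lay above replicate 1 for 42 of 42 genes, against 46.6% of all genes, by a median of 0.19 and by 0.01 to 0.53. In the other groups replicate 2 was the higher array for 28 (Th1 wild-type), 25 (Th1 Tet2-/-) and 22 (Th17 wild-type) of the 42. Among the 4 Th17 arrays, Tet2-/- replicate 2 was highest for 28 genes, against 25.7% of all genes, and lowest for 0, while Tet2-/- replicate 1 was lowest for 22. The mitosis genes moved with the same array, with a mean level of 7.68 on Tet2-/- replicate 1, 8.202 on Tet2-/- replicate 2 and 7.73 and 7.75 on the wild-type arrays. Of the 17, 16 were higher on the Tet2-/- arrays, against 56.6% of all genes, with a median of 0.20. An unadjusted p under 0.05 was held by 3 of them (17.6%, against 2.81% of all genes higher), and 0 were called. The genotype difference in Th17 cells minus that in Th1 cells was above 0 for 17 of the 17, against 52.7% of all genes, with a median of 0.63. Here 10 had an unadjusted p under 0.05 (58.8%, against 2.93% of all genes higher) and 0 were called. The part of the mitosis genes in the result was not tested. Tet2-/- replicate 2 is the array with the high Xist and low Y-linked level. With a covariate for the Y-linked level the median genotype difference in Th17 cells was -0.06. That level was 4.85 on this array and 7.82 to 8.80 on the other Th17 arrays, so the covariate mainly sets this array apart. It cannot separate the cells' sex from other traits of the array, and the part of sex was not tested.

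**Figure D4:**
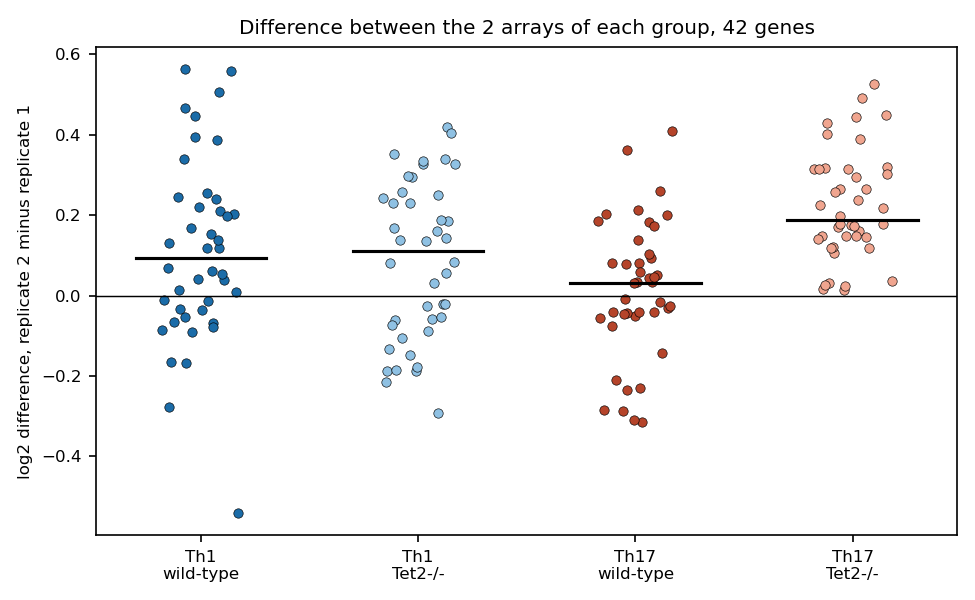
Difference between the 2 arrays of each group (replicate 2 minus replicate 1, log2) for the 42 genes, with 1 point per gene and a line at the median. All 42 points lie above 0 in the Th17 Tet2-/- group, where the median is 0.19, and the points of the other groups lie on both sides of 0.

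Rpa3, the smallest subunit of the single-strand binding protein RPA, had the smallest p of the 42 in Th17 cells. It read 7.69 and 7.65 on the wild-type arrays and 7.86 and 8.16 on the Tet2-/- arrays, a difference of 0.34 (SE 0.133, limma adjusted p = 0.999). Both Tet2-/- arrays were the higher ones, and without replicate 2 the difference was 0.19. Its other probeset read 7.84 and 7.40 against 7.43 and 7.71 and gave -0.05. Rpa1, the large subunit that binds DNA, read 8.78 and 8.81 against 8.94 and 8.97, with the genotypes apart.

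Orc1, the ATPase subunit of the origin recognition complex, was the gene furthest below 0 in Th17 cells. It read 7.15 and 7.33 on the wild-type arrays and 6.92 and 7.08 on the Tet2-/- arrays, a difference of -0.25 (SE 0.124, adjusted p = 0.999), and its Th1 arrays were apart the same way, at 7.19 and 7.42 against 7.12 and 7.10. Rfc3 was the other gene lower in both cell types, at 9.06 and 9.01 against 8.85 and 8.97 in Th17 cells. Both genes lower on all Tet2-/- arrays made 2 of 42, where 1.93% of all genes did so.

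Of the GINS subunits, Gins4 read 8.24 and 8.44 on the Th17 wild-type arrays and 8.51 and 8.65 on the Tet2-/- arrays (0.24, SE 0.125), and Gins2 7.89 and 7.97 against 8.05 and 8.22 (0.20, SE 0.119). The MCM subunits Mcm3, at 9.25 and 9.28 against 9.35 and 9.62, and Mcm6, at 9.92 and 10.02 against 10.10 and 10.27, differed by 0.22 each. In these 4 genes both Tet2-/- arrays were higher, with replicate 2 the highest, and without that replicate the differences were 0.17 for Gins4, 0.11 for Gins2, 0.09 for Mcm3 and 0.13 for Mcm6. Tk1 read 7.42 and 7.47 against 7.50 and 7.81 (0.21), where its other probeset gave -0.04, and Pola2, the accessory subunit of polymerase alpha, 8.09 and 8.26 against 8.30 and 8.41 (0.18). Without Tet2-/- replicate 2 they differed by 0.06 and 0.12. The limma adjusted p was 0.999 for each of these genes.

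The enzymes that led in Th1 cells overlapped between genotypes in Th17 cells. Tyms read 8.24 and 8.10 on the wild-type arrays and 7.97 and 8.49 on the Tet2-/- arrays, so the Tet2-/- arrays held both the lowest and the highest value. Rrm2 read 9.28 and 9.25 against 9.20 and 9.63, and Rrm1 9.95 and 9.91 against 9.82 and 10.22, in the same arrangement. Rfc4 read 8.91 and 9.10 against 9.04 and 9.36.

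The test of the difference itself asked whether the genotype difference in Th17 cells departed from that in Th1 cells. It lay above 0 for 35 of 42 genes, against 52.7% of all genes, with a median of 0.20 against 0.01. Limma called 0 of the 42 (0% of all genes). An unadjusted p under 0.05 was held by 5, all above 0 (11.9%, against 2.93% of all genes higher and 1.63% lower). They were Rfc4 (0.56, SE 0.204), Rrm2 (0.64, SE 0.246), Gins2 (0.43, SE 0.168), Rpa3 (0.47, SE 0.188) and Tyms (0.54, SE 0.231), each at an adjusted p of 0.999. The other Rpa3 probeset gave 0.25 (SE 0.254). Without Th17 Tet2-/- replicate 2 the median was 0.08 and 0 genes had an unadjusted p under 0.05. Without Th17 Tet2-/- replicate 1 it was 0.32, with 8 such genes.

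Genes of the 42 passed the test only when the cell types were compared, and in wild-type cells they were S phase entry genes. There Ccne2 and Ccne1 fell in Th17 relative to Th1 cells. They were 2 of the 42 genes (4.76%) called lower, against 3.17% of all genes, with 0 called higher, against 5.3%. The Th17 wild-type arrays read 5.20 and 10.1 for Xist, and the part of the cells' sex in these calls was not tested. Over the 42, 29 genes were lower and 13 higher, against 52.8% of all genes lower, with a median of -0.07. The median over all genes was -0.01, but over the 9969 genes at or above the median level, to which all 42 belong, it was 0.10. After quantile normalization that last value was -0.00, the median of the 42 was -0.20 and 40 of 42 genes were lower, so the size of the shift over the list depended on the scaling. Among all genes 1056 of the 1689 called genes were higher, and 676 of 1309 after quantile normalization; between the Tet2-/- groups these were 1423 of 2078 and 918 of 1649.

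Ccne2 read 8.46 and 8.38 on the Th1 wild-type arrays and 7.71 and 7.50 on the Th17 wild-type arrays. Both Th17 arrays lay well below both Th1 arrays, and the difference was -0.81 (SE 0.150, 95% interval -1.13 to -0.48, adjusted p = 0.00557), a 1.75-fold lower level. Ccne1 read 9.06 and 9.26 against 8.50 and 8.48, a difference of -0.67 (SE 0.139, adjusted p = 0.0107), or 1.59-fold. The calls rested in part on single arrays: leaving out Th17 wild-type replicate 2 gave adjusted p of 0.0680 for Ccne2 and 0.0760 for Ccne1, and leaving out Th1 wild-type replicate 2 gave 0.0569 for Ccne1. E2f1, a transcription factor that drives cyclin E and many of the genes here, read 8.01 and 8.02 against 7.63 and 7.89, lower on both Th17 arrays but not called (-0.25, adjusted p = 0.268). Without Th17 wild-type replicate 1 it differed by -0.13, and without replicate 2 by -0.38.

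**Figure D5:**
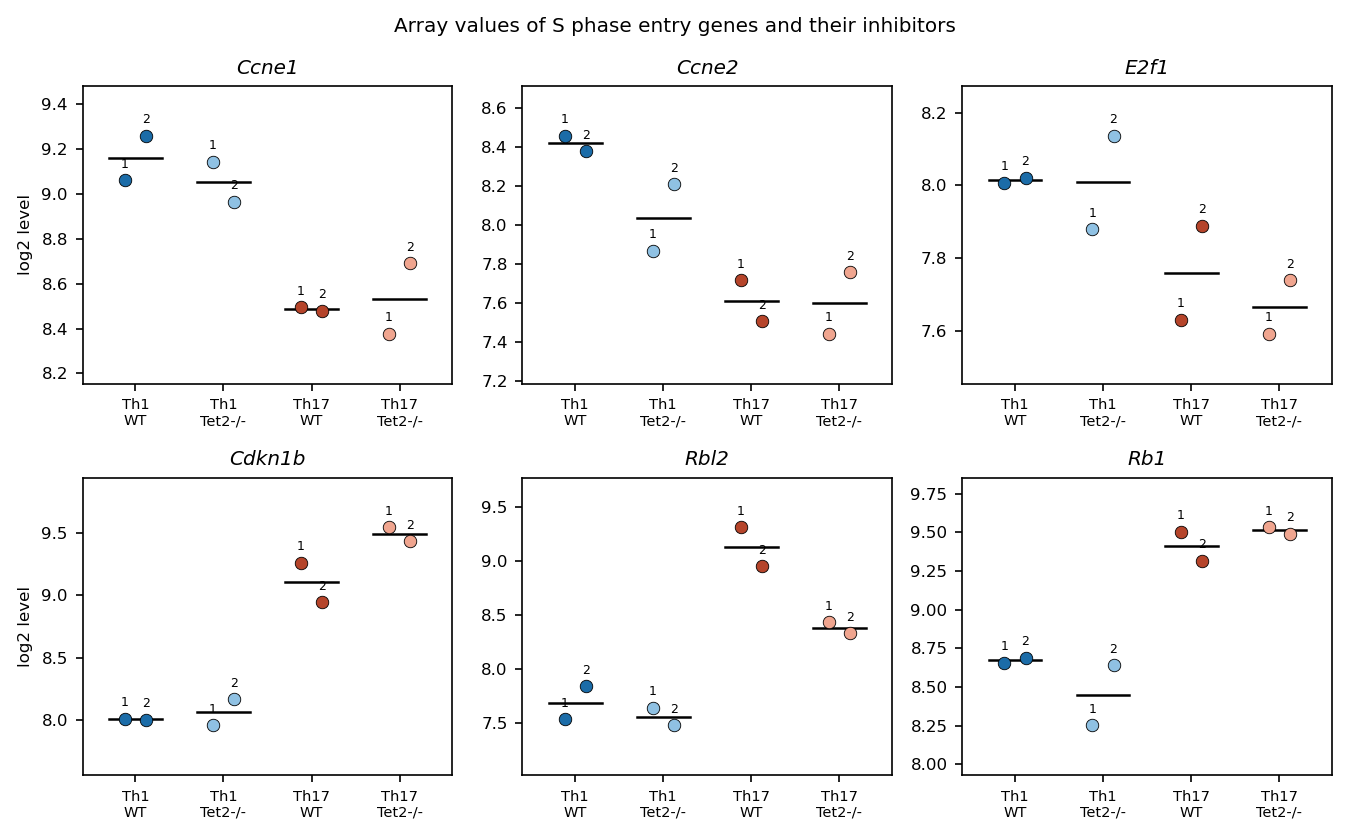
Log2 level on each array of E2f1, Ccne1 and Ccne2, which promote entry into S phase, and of Rb1, Rbl2 and Cdkn1b, which hold it back, with a line at each group mean; the axes differ and do not start at 0. Every Th17 array lies below every Th1 array of the same genotype for the first 3 genes and above it for the last 3.

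The same comparison gave 5 further genes with an unadjusted p under 0.05, all lower in wild-type Th17 cells, so 7 with the cyclins (16.7%, against 11% of all genes), and 0 higher, against 13.4%. Cdc45 read 8.25 and 8.21 on the Th1 arrays and 7.84 and 7.88 on the Th17 arrays, a difference of -0.37 (SE 0.120, adjusted p = 0.0778). Fen1 read 7.91 and 8.11 against 7.66 and 7.63 (-0.37, SE 0.135, adjusted p = 0.117). In both genes the cell types were apart, and after quantile normalization both were called, at adjusted p of 0.0235 and 0.0419. Tyms (-0.45, SE 0.163), Rrm2 (-0.47, SE 0.174) and Lig1 (-0.29, SE 0.132) were also apart, at adjusted p of 0.110, 0.122 and 0.200. Without Th1 wild-type replicate 2 Rrm2 differed by -0.23 and Lig1 by -0.17. Th17 arrays lay below Th1 arrays for 15 of the 42 genes and above for 7, against 26.7% and 25.2% of all genes.

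Between cells labelled Tet2-/-, Ccne1 was again lower in Th17 cells and 3 other genes were higher. Ccne1 read 9.14 and 8.96 on the Th1 arrays and 8.38 and 8.69 on the Th17 arrays, a difference of -0.52 (SE 0.139, adjusted p = 0.0324). Rpa3 read 7.35 and 7.59 against 7.86 and 8.16 (0.54, SE 0.133, adjusted p = 0.0215), Rfc4 8.54 and 8.79 against 9.04 and 9.36 (0.53, SE 0.144, adjusted p = 0.0346) and Rpa1 8.43 and 8.62 against 8.94 and 8.97 (0.43, SE 0.123, adjusted p = 0.0423). The cell types were apart in all 4. Called were thus 3 higher genes of 42 (7.14%, against 7.14% of all genes) and 1 lower (2.38%, against 3.29%), so the share equals or lies below the background. None of the 3 higher genes was called without Th17 Tet2-/- replicate 2, without Th1 Tet2-/- replicate 1 or after quantile normalization. Rpa1 was not called when any of the 6 arrays of the Th17 groups and the Th1 Tet2-/- group was left out. Ccne1 was not called without Th17 Tet2-/- replicate 1 or without either Th1 Tet2-/- replicate. For Rpa3 the other probeset gave 0.31, and the mean of both an adjusted p of 0.0729.

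Over the list, 26 genes were higher and 16 lower between the Tet2-/- groups, against 48.8% of all genes higher, with a median of 0.10, the same as over the better-expressed genes. The median was -0.06 without Th17 Tet2-/- replicate 2 and -0.03 after quantile normalization, so no direction is given for the list. At an unadjusted p under 0.05 there were 7 higher genes (16.7%, against 14.9% of all genes) and 3 lower (7.14%, against 9.61%). The cell types were apart for 11 higher genes (26.2%) and 9 lower genes (21.4%), against 28.8% and 27.6% of all genes. Ccne2 read 7.87 and 8.21 against 7.44 and 7.75, and its difference of -0.44 (SE 0.150) had an adjusted p of 0.0850. For Ccne2 the genotype difference in Th17 cells minus that in Th1 cells was 0.37 (SE 0.212, limma adjusted p = 0.999) and was not called.

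In both genotypes together, all Th17 arrays lay below the Th1 arrays of their genotype for 4 genes: Ccne1, Ccne2, E2f1 and Mcm10, a helicase activation factor (13.5% of all genes did so). They lay above for 5: Mcm3, Mcm6, Rfc2, Rpa1 and Rpa3 (17.2% of all genes). The other Rpa3 probeset overlapped in wild-type cells, at 7.52 and 7.62 on the Th1 arrays and 7.84 and 7.40 on the Th17 arrays. Mcm6 read 9.77 and 9.90 on the Th1 wild-type arrays and 9.92 and 10.02 on the Th17 wild-type arrays, and 9.74 and 9.92 against 10.10 and 10.27 between the Tet2-/- groups.

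Among the genes outside the 42, 3 that hold back S phase were called higher in Th17 than in Th1 cells in both genotypes. Cdkn1b, which encodes p27, the inhibitor of cyclin E and Cdk2, read 8.01 and 8.00 on the Th1 wild-type arrays and 9.26 and 8.95 on the Th17 wild-type arrays, and 7.95 and 8.17 against 9.55 and 9.44 between the Tet2-/- groups. It rose by 1.10 (SE 0.137, adjusted p = 0.000324) and 1.43 (SE 0.137, adjusted p = 3.86e-05). Rbl2, the retinoblastoma relative p130, which holds E2F genes silent in resting cells, read 7.54 and 7.84 against 9.31 and 8.95 in wild-type cells and 7.65 and 7.48 against 8.44 and 8.33 in Tet2-/- cells. It rose by 1.44 (adjusted p = 8.15e-05) and 0.82 (adjusted p = 0.00397). Rb1, the retinoblastoma protein, read 8.66 and 8.69 against 9.50 and 9.31, and 8.25 and 8.64 against 9.53 and 9.49, and rose by 0.74 (adjusted p = 0.00719) and 1.07 (adjusted p = 0.000462). Without Th17 wild-type replicate 1 the adjusted p of Rb1 in wild-type cells was 0.0576. Cdkn1b and Rbl2 were called under each of the 19 alternatives in both genotypes.

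Rbl2 also held the widest genotype gap of these genes in Th17 cells, with 9.31 and 8.95 on the wild-type arrays and 8.44 and 8.33 on the Tet2-/- arrays. The difference of -0.75 (SE 0.150) did not pass the test (adjusted p = 0.462), and in Th1 cells it was -0.13. Of the 12 genes of the E2F and retinoblastoma list, 2 were called higher in Th17 than in Th1 wild-type cells (16.7%, against 5.3% of all genes). Between the Tet2-/- groups 3 were called higher (25%, against 7.14%), where Tfdp2, a partner of E2F proteins, was the third (0.63, adjusted p = 0.0215). None was called lower, but 2 and 1 genes were lower at an unadjusted p under 0.05. The list medians were 0.001 and 0.06. Of the 17 measured genes of the list of cyclins, kinases and inhibitors, Cdkn1b alone was called in wild-type cells (5.88%, against 5.3% of all genes higher). Between the Tet2-/- groups Cdc25a, a phosphatase that activates Cdk2, fell by 0.55 (adjusted p = 0.0219) and Ccnd2, a D-type cyclin, fell by 0.44 (adjusted p = 0.0376). These 2 made 11.8% called lower, against 3.29% of all genes. The list medians were -0.17 and -0.04, with 4 genes lower at an unadjusted p under 0.05 in each comparison. Tfdp2 was called under 12, Cdc25a under 13 and Ccnd2 under 8 of the 19 alternatives. None of the 3 was called without either Th17 Tet2-/- replicate or without Th1 Tet2-/- replicate 1, and Ccnd2 was not called without Th1 Tet2-/- replicate 2 or either Th17 wild-type replicate. Without Th1 Tet2-/- replicate 1 the differences were 0.39 for Tfdp2 and -0.42 for Cdc25a.

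The remaining deoxynucleotide, licensing and mitosis genes had few calls, which held under 7 (Nme1) to 19 (Dck) of the 19 alternatives. Dck, which phosphorylates salvaged deoxycytidine, rose in Th17 relative to Th1 cells between the Tet2-/- groups by 0.89 (SE 0.123, adjusted p = 0.000583), and Samhd1, which breaks down deoxynucleotides, fell by 0.45 (adjusted p = 0.0415). In wild-type cells Nme1, a nucleoside diphosphate kinase, rose by 0.55 (adjusted p = 0.0378), and Dck differed by 0.39 (adjusted p = 0.0709). Of the 11 deoxynucleotide genes 9.09% were thus called higher in wild-type cells, against 5.3% of all genes. Between the Tet2-/- groups 9.09% were called higher and 9.09% lower, against 7.14% and 3.29%. Higher in wild-type Th17 cells were 10 of these 11 and 14 of 15 pyrimidine and purine genes. Over all genes this share was 47.2%, and 66.0% over the better-expressed genes. Prps2, of the pyrimidine and purine list, was called higher between the Tet2-/- groups (adjusted p = 0.0326), or 6.67% against 7.14% of all genes. Of the 13 other licensing genes, Mcm9 rose in wild-type cells by 0.49 (adjusted p = 0.0280). Orc3 and Orc5 rose between the Tet2-/- groups by 0.53 and 0.49 (adjusted p = 0.0112 and 0.0136). The licensing genes called higher made 7.69% in wild-type cells and 15.4% between the Tet2-/- groups, against 5.3% and 7.14% of all genes. All 17 mitosis genes were lower in Th17 than in Th1 wild-type cells, with 1 called (Ttk, -0.56, adjusted p = 0.0288), or 5.88% against 3.17% of all genes. Between the Tet2-/- groups 15 were higher and 2 were called (Cenpf 0.48 and Kif20a 0.59, adjusted p = 0.0264 and 0.0355), or 11.8% against 7.14%. Without Th17 Tet2-/- replicate 2 Cenpf differed by 0.32 and Kif20a by 0.35 (adjusted p = 0.222 and 0.287). Neither was called without either Th1 Tet2-/- replicate. Orc3, Orc5 and Samhd1 lost the call when any 1 of the 4 Tet2-/- arrays was left out, at adjusted p of 0.0645, 0.0645 and 0.202 without Th17 Tet2-/- replicate 2, and Samhd1 also not without either Th17 wild-type replicate. The 2 genotype comparisons and the 2 cell type comparisons share arrays, so their values are set side by side and no likeness between them is drawn.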

How the data were processed

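RNA from 8 cultures was measured on biotin-labelled Affymetrix arrays. The deposited table holds a log2 level per probeset and array; the submitters' processing notes name RMA and Partek, with no version, filter or genome build, and the log base was taken from the range of 2.71 to 14.11. Of 35556 probesets, 1621 had several symbols, 12146 had none listed and 21789 had exactly 1. The GRCm38.p6 gene table held 21698 of the latter by Entrez ID and changed 0 symbols. Several probesets existed for 999 genes, where the highest mean decided, leaving 19938 genes. No gene or array was left out.

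Limma 3.58.1 (R 4.3.3) fitted 4 group means over all arrays, with an intensity trend in eBayes and 4 residual and 8.44 prior degrees of freedom. Tests are two-sided, with Benjamini-Hochberg adjustment over the 19938 genes, and "called" means an adjusted p below 0.05. The fit was tested on simulated data. Arrays carry no counts, so their number, 2 per group, limits the precision. Array medians lay between 6.47 and 6.53.

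Full values were given for the 8 genes with the smallest p in each genotype comparison and in the wild-type cell type comparison, the 4 in the others, and fixed examples of each role. The genes, lists and this rule were chosen with earlier results of these data known. Replicate numbers were checked as a pairing, and 19 alternatives were run. Impdh2, Ssrp1, Cdkn1a and Ccnb1 had no probeset with a single symbol and were not analysed here.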

Additional observations from a re-analysis of the deposited data

Results flagged for a closer look

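Gins2, a subunit of the helicase activator GINS, was the gene of the 42 whose genotype difference ran in opposite directions with no overlap of arrays: both Tet2-/- arrays lay below both wild-type arrays in Th1 cells and above both in Th17 cells. The genotype difference in Th17 cells minus that in Th1 cells was 0.43 (SE 0.168, unadjusted p = 0.0251, limma adjusted p = 0.999). It ranged from 0.34 to 0.52 when single arrays were left out. This pattern was shared by 600 of 19938 genes (3.01%).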

How the results depend on the processing

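The limits are those of 2 arrays per group, of replicates whose origin is not stated, and of Th17 arrays that differ in sex-linked genes. These Th17 arrays, apart from wild-type replicate 1, also differ from the Th1 arrays in Xist. For the genes named for their smallest p in a comparison, no difference in that comparison changed sign under the 19 alternatives. Signs did change elsewhere among the 42: in Th17 cells 27 lay above 0 over all arrays and 12 without Tet2-/- replicate 2. Limma called 0 of the 42 genes for the genotype differences under each alternative that kept 2 arrays per group. The median of the 42 in Th1 cells stayed below 0 under all 19, from -0.22 to -0.08, and 1 to 7 genes had an unadjusted p under 0.05 when single arrays were left out.

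Leaving out single arrays gave a median genotype difference in Th17 cells of -0.089 to 0.17, with 0 to 3 genes higher and 0 to 1 lower at an unadjusted p under 0.05. It gave a median of 0.079 to 0.32 for the genotype difference in Th17 cells minus that in Th1 cells. Between wild-type cell types it left 0 to 2 genes called lower and 4 to 9 lower at an unadjusted p under 0.05. Between Tet2-/- cell types the median was -0.059 to 0.23, with 0 to 3 genes called higher, 0 to 1 called lower, and 3 to 8 higher and 0 to 3 lower at an unadjusted p under 0.05.

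Without the Th17 arrays of extreme Y-linked level (wild-type replicate 1 and Tet2-/- replicate 2), the median genotype difference in Th17 cells was -0.075. The median of the genotype difference in Th17 cells minus that in Th1 cells was then 0.10, and the median between Tet2-/- cell types was -0.059. The covariate for the Y-linked level mainly sets Th17 Tet2-/- replicate 2 apart. With it the median genotype difference in Th17 cells was -0.056 (0 genes higher). The genotype difference departed between the cell types in 0 genes at an unadjusted p under 0.05. Between Tet2-/- cell types 0 were called higher and 4 had an unadjusted p under 0.05.

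Quantile normalization gave a median of -0.20 between wild-type cell types, with 4 genes called lower and 15 lower at an unadjusted p under 0.05, and of -0.033 between Tet2-/- cell types, with 0 called higher, 3 called lower, and 3 higher and 7 lower at an unadjusted p under 0.05. In Th17 cells it left 0 genes higher at an unadjusted p under 0.05, as did the mean of a gene's probesets. With all 35556 probesets tested, 0 genes were called lower between wild-type cell types, and 0 higher and 0 lower between Tet2-/- cell types. The genotype difference then departed between the cell types in 3 genes at an unadjusted p under 0.05. The cause of these changes was not tested.

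The replicate numbers did not pair the arrays: the replicate differences of the groups correlated at -0.19 to 0.05 over all genes and at -0.40 to 0.45 over the 42. With the replicate block, limma called 1411 genes between wild-type cell types and 1810 between Tet2-/- cell types, against 1689 and 2078 without it. Rpa1 had an adjusted p of 0.0627 with the block (0.43), and the block changed no other call among the genes named from the 42.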
